A study of Mus musculus with 35 samples.

Results

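Glycolysis and hypoxia response genes were followed as a set of 33 genes in mouse lung. The members were the rows of the deposited expression table that carry one of 33 listed gene symbols, and all 33 were found among 22211 genes. They cover glucose and lactate carriers (Slc2a1, Slc2a3, Slc16a3), the enzymes from glucose to lactate (Hk1, Hk2, Gpi1, Pfkl, Pfkm, Pfkp, Aldoa, Aldoc, Tpi1, Gapdh, Pgk1, Pgam1, Eno1, Eno2, Pkm, Ldha), regulators of that route (Pfkfb3, Pfkfb4, Pdk1), parts of the oxygen sensing system (Hif1a, Hif3a, Egln1, Egln3) and targets of hypoxia (Bnip3, Ndrg1, Ankrd37, Car9, Ddit4, Adm, P4ha1).

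Glycolysis converts glucose to pyruvate in the cytosol and yields ATP without oxygen, and lactate dehydrogenase then turns pyruvate into lactate. When oxygen is plentiful, prolyl hydroxylases (Egln genes) mark the alpha subunits of hypoxia inducible factor (HIF) for destruction, and when oxygen is scarce these subunits persist, pair with ARNT and switch on carriers, glycolytic enzymes and genes for vessel tone and matrix. HIF acts mainly through protein stability, so the messenger RNA of its subunits is not a readout of its activity. The HIF subunits belong to the same bHLH-PAS protein family as the clock factors CLOCK and BMAL1.

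RNA came from the left lung lobe of 35 male C57BL/6 mice aged 7 to 9 weeks, harvested at ZT4 (4 hours after lights on, the rest phase) or ZT16 (the active phase). Wild-type mice were injected under the skin on 2 consecutive days with IgG as the control, or with clone 1A8, an antibody to Ly6G on neutrophils (anti-Ly6G). Both antibodies were dosed at 3 µg per g of mouse. Mice of genotype MRP8-Cre;iDTR-flox received diphtheria toxin (DT) at 10 ng per g. In these mice Cre from the promoter of a myeloid calcium-binding protein gene opens a toxin receptor gene, so cells other than mature neutrophils that use the promoter can also be hit, and no DT-treated mice without the receptor or untreated mice of that genotype were analysed here. The groups held 7 control and 7 anti-Ly6G mice at each time, 3 from a July 2017 and 4 from a September 2017 batch, and 4 (ZT4) and 3 (ZT16) DT mice, all from April 2018. The series' design text counts mice per group, and libraries were read as single mice, so p-values measure the spread between these libraries. Lungs were taken in the morning for all groups, and ZT16 mice came from cabinets with inverted light, so time and housing cannot be told apart. DT, genotype and the April batch likewise cannot be told apart, and levels of DT mice were therefore not compared with those of the other groups.

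The promoters were searched for short letter motifs that HIF and clock factors are known to read. RefSeq promoter windows (GRCm38.p6) were found for 31 of the 33 members, and the 250 bases before the start were searched on both strands. The core of the hypoxia response element, ACGTG or GCGTG, was present in 25 of 31 member promoters (80.6%) against 38.6% of 27025 promoters of all genes. The members were listed as glycolysis and hypoxia response genes, and their promoters were also richer in G and C, with a median of 62.8% against 52.0%. The part of either in the higher share was not tested. The E-box CACGTG, which contains ACGTG and is read by clock and Myc family proteins, stood in 4 member promoters (12.9%) against 6.0% of all. AGGTCA, the site core of ROR and REV-ERB, stood in 2 (6.5% against 13.8%), and the D-box TTATGTAA stood in none (0.9% of all). These matches are letters in a window and not measured sites, and a window without a match says nothing about the factor. The windows below are examples from members called with time, taken from those that lie mostly outside annotated exons, and all 8 hold a core. The windows of Pkm, Aldoa, Tpi1, Pfkl, Pfkfb3 and Pfkfb4 lie in large part over annotated exons and are not shown. Those of Pkm, Aldoa and Tpi1 hold 0 cores and those of Pfkl, Pfkfb3 and Pfkfb4 1 each. The windows of Hk2, Gapdh and Hif1a, also called with time, are not shown either and hold 2, 2 and 3 cores. The windows shown run 5′ to 3′ on the gene's strand with the cores in capitals (CACGT and CACGC are the same cores on the other strand). They are trimmed where an annotated exon begins. They are Pgk1 (chrX:106186850-106187099, plus strand), Slc2a1 (chr4:119108495-119108710, plus), Egln1 (chr8:124949325-124949504, minus), Ldha (chr7:46845554-46845803, plus), Pfkp (chr13:6648778-6649021, minus), P4ha1 (chr10:59323046-59323295, plus), Hif3a (chr7:17062428-17062677, minus) and Adm (chr7:110627407-110627656, plus).
Pgk1: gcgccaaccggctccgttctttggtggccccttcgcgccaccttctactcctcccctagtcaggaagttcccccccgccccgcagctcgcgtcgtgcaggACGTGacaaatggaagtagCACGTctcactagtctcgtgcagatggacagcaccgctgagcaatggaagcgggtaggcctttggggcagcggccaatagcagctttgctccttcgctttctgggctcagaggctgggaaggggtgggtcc
Slc2a1: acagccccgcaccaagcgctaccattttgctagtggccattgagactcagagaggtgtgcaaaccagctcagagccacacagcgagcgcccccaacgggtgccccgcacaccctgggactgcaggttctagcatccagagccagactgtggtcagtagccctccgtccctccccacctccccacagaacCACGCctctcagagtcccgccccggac
Egln1: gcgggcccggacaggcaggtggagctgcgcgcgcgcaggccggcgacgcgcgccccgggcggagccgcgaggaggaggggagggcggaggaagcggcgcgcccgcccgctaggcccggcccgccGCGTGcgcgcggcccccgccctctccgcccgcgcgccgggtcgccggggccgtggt
Ldha: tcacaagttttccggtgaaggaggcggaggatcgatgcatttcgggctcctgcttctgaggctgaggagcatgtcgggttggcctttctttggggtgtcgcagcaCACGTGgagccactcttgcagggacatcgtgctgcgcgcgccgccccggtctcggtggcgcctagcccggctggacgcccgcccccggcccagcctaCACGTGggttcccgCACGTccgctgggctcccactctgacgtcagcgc
Pfkp: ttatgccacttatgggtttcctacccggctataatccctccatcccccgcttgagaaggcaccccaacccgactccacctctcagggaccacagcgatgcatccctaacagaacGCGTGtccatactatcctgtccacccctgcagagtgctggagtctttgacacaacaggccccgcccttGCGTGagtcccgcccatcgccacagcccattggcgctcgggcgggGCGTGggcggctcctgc
P4ha1: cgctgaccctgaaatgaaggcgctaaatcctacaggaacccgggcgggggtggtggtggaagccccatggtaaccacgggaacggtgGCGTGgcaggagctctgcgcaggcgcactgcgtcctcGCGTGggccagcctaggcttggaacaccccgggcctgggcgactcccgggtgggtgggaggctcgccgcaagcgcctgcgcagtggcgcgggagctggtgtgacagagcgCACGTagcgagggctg
Hif3a: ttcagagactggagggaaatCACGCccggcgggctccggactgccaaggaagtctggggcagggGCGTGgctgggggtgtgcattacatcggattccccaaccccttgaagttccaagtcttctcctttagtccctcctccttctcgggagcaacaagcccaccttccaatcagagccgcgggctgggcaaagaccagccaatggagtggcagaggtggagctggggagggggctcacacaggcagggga
Adm: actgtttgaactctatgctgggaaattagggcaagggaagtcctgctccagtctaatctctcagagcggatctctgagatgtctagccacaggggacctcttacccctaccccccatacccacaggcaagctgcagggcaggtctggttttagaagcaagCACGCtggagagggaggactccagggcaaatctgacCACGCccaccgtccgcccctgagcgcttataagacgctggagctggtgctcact
The Ldha window holds 5 cores counted on both strands, since each of its 2 E-boxes reads as a core on either strand. That window precedes a RefSeq start that lies inside the gene as GENCODE draws it. The windows of Pgk1, Adm and Hif3a hold 2 cores each and those of P4ha1 and Pfkp 3 each. Slc2a1 and Egln1 show 1 core here and hold 2 in the full 250 bases.

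The libraries were close to each other in their sums, from 962649 to 1033550, and 15351 to 15802 genes per library reached a value of 1. Libraries are named by group, batch and order in the table, as in ZT4_control Sep#2. Markers of alveolar type 2 cells (8 genes) were abundant in every library, with summed levels from 23550 to 31360. The 12 mature neutrophil markers summed to 132 to 914 in control and 107 to 162 in anti-Ly6G mice at ZT4, and to 72.7 to 141 and 62.0 to 91.6 at ZT16, so the summed levels of control and anti-Ly6G mice overlapped at both times. None of the 11 markers tested was called between treatments, although 11 of 11 were lower after anti-Ly6G at ZT4 and 10 of 11 at ZT16. The sum of 914 belongs to ZT4_control Sep#2, far above the median of 139 in its group. That library was also the highest of its group for Pkm, Slc2a3, Slc16a3, Ankrd37, Ddit4 and P4ha1. The same held for Gpi1, Pfkl, Pfkfb4, Aldoa, Gapdh, Eno1, Ldha, Egln1 and Adm. Its red cell marker sum of 821.7 was the highest of its group too, where the median was 188.5. The part of neutrophil content in the member results was not tested.

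With the change from rest to active phase, a small part of the glycolytic route rose in the lung and 1 isoform of phosphofructokinase fell. In control mice 6 of 33 members were higher at ZT16 and 2 were lower (limma, adjusted p under 0.05), or 24.2% of members against 9.04% of all 16786 genes tested. In anti-Ly6G mice 11 were higher and 1 was lower, or 36.4% against 20.9%. Over all genes the calls were nearly even in direction, 4.65% higher and 4.38% lower in control mice and 10.6% and 10.4% in anti-Ly6G mice. Pgk1, Pkm, Pfkl, Slc2a1 and Egln1 rose and Pfkp fell in both treatments. These 6 genes are 75% of the members called in control and 50% of those called in anti-Ly6G mice, where over all genes 1124 calls were shared with one sign (74.1% and 32%, or 6.7% of genes tested). The changes were small: only Adm in control mice and Hif3a and P4ha1 in anti-Ly6G mice changed by over 1.5-fold among the called members. Over all genes 238 of 1517 called in control and 550 of 3514 called in anti-Ly6G mice did so. Small changes were thus not particular to the members. The median change of the 33 members was 0.056 in control and 0.13 in anti-Ly6G mice on the log2 scale, against -0.0018 and -0.016 over all genes tested. Member genes had a median standard error of 0.0745 against 0.0897 over all genes, so smaller changes could be called in them. In whole tissue, fewer cells of a type and less RNA per cell cannot be told apart in any of these changes.

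**Figure D1:**
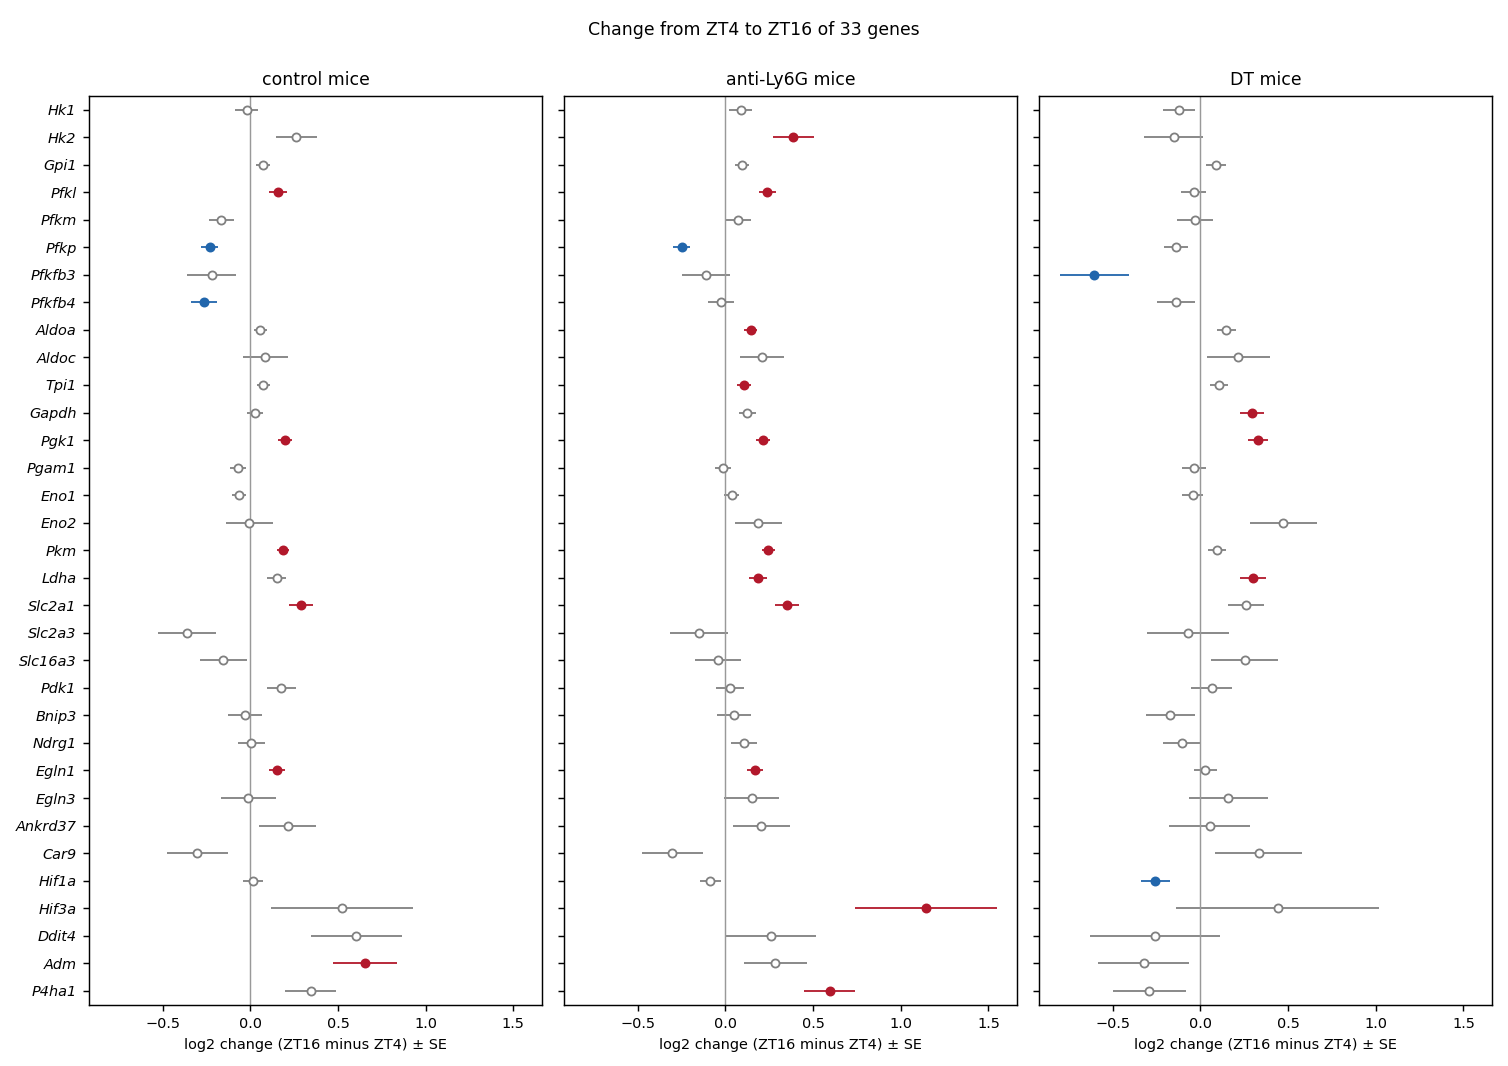
Log2 change from ZT4 to ZT16 (x axis, ± SE, limma) of each of the 33 genes (y axis) in control, anti-Ly6G and DT mice. Filled red points are genes called higher and filled blue points genes called lower at adjusted p under 0.05, and open grey points were not called. Pgk1 is the gene called in all 3 panels, at 0.20, 0.22 and 0.33.

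Among the glucose and lactate carriers, the RNA of Slc2a1 rose in both treatments. Slc2a1 encodes GLUT1, the basal glucose carrier of many cells (ENSMUSG00000028645, GRCm38 chromosome 4, 119108711 to 119137983, plus strand). Its normalised value in control mice ran from 26.0 to 35.4 (median 31.3) at ZT4 and from 30.8 to 41.9 (median 37.2) at ZT16. In anti-Ly6G mice it ran from 26.2 to 33 (median 28.8) and from 35.9 to 39.9 (median 37.7). The 2 times overlapped in control mice, where the ZT16 library Sep#2 lay at 30.8, but every anti-Ly6G library at ZT16 was above every one at ZT4. Slc2a1 rose by 0.29 ± 0.071 in control (adjusted p = 0.00736) and 0.35 ± 0.071 in anti-Ly6G mice (adjusted p = 0.000499) on the log2 scale. Slc2a3, the high-affinity carrier GLUT3 that leukocytes use, was low and ran from 6.23 to 19.99 (median 8.11) at ZT4 and 6.18 to 8.98 (median 6.60) at ZT16 in control mice. Its highest value was that of ZT4_control Sep#2, the library with the neutrophil marker sum of 914, and its change of -0.36 ± 0.16 was not called (adjusted p = 0.172). Slc16a3, the lactate exporter MCT4, was also highest in that library, at 28.8 where the other control libraries of ZT4 ended at 16.3, and its changes were -0.15 ± 0.13 and -0.042 ± 0.13.

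Hexokinase, which traps glucose as glucose 6-phosphate, is represented by a constant and an inducible form. Hk1, the housekeeping form, had changes of -0.021 ± 0.064 in control and 0.087 ± 0.064 in anti-Ly6G mice, neither of them called. Hk2, the inducible form (chromosome 6, 82725025 to 82774454, minus strand), ran from 20.8 to 36.4 (median 25.5) at ZT4 and from 29.3 to 41.5 (median 32.9) at ZT16 in anti-Ly6G mice. It rose there by 0.39 ± 0.12 (adjusted p = 0.0166), although the ZT4 library Sep#3 at 36.4 lay among the ZT16 values. In control mice it ran from 22.8 to 34.1 (median 31.0) and from 26.5 to 39.2 (median 34.8), and the change of 0.26 ± 0.12 was not called (adjusted p = 0.162). Gpi1, which converts glucose 6-phosphate to fructose 6-phosphate, had changes of 0.070 ± 0.040 and 0.096 ± 0.040 and was not called.

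At the committed step, phosphofructokinase, the isoforms differed in direction. Pfkl, the liver-type subunit (ENSMUSG00000020277, chromosome 10, 77986947 to 78010083, minus strand), ran from 67.0 to 75.7 (median 68.3) at ZT4 and from 75.2 to 84.8 (median 77.1) at ZT16 in control mice, and from 61.0 to 71.7 (median 65.8) and 69.5 to 87.4 (median 79.6) in anti-Ly6G mice. It rose by 0.16 ± 0.049 (adjusted p = 0.0353) and 0.24 ± 0.049 (adjusted p = 0.000624). Pfkp, the platelet-type subunit (ENSMUSG00000021196, chromosome 13, 6579768 to 6648777, minus strand), went the other way. It ran from 59.7 to 72.8 (median 66.2) at ZT4 and from 52.5 to 62.8 (median 56.2) at ZT16 in control mice, and from 63.9 to 74.9 (median 67.9) and 50.4 to 60.1 (median 58.7) in anti-Ly6G mice. It fell by 0.23 ± 0.049 (adjusted p = 0.00205) and by 0.25 ± 0.049 (adjusted p = 0.000436), and in anti-Ly6G mice no library of ZT16 reached the lowest of ZT4. Pfkm, the muscle-type subunit, had changes of -0.17 ± 0.072 and 0.072 ± 0.072 and was not called in either treatment. The control call of Pfkl was lost on leaving out any one of 8 libraries, with changes of 0.13 to 0.16 and adjusted p up to 0.0885 in those fits, while its anti-Ly6G call held in each such fit. Pfkp shares 748 exon bases with Pitrm1, and no source used here says whether counting used strand.

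The enzymes that set fructose 2,6-bisphosphate, the strongest activator of phosphofructokinase, were not called higher in either treatment. Pfkfb4, which has both kinase and phosphatase activity, ran from 47.7 to 67.6 (median 55.2) at ZT4 and from 42.8 to 50.1 (median 46.8) at ZT16 in control mice and fell by 0.26 ± 0.075 (adjusted p = 0.0219). In anti-Ly6G mice it ran from 44.6 to 58.1 (median 45.9) and from 41.8 to 53.3 (median 48.3), with a change of -0.023 ± 0.075 that was not called. The control call was lost without ZT4_control Jul#2 (-0.23, adjusted p = 0.0549), ZT4_control Sep#2 (-0.21, adjusted p = 0.0586) or ZT16_control Sep#3 (-0.24, adjusted p = 0.0534). Pfkfb3, the mainly kinase form that hypoxia and growth signals raise, had changes of -0.22 ± 0.14 and -0.11 ± 0.14, neither called, and its highest value of the series was 205 in ZT4_antiLy6G Jul#3.

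**Figure D2:**
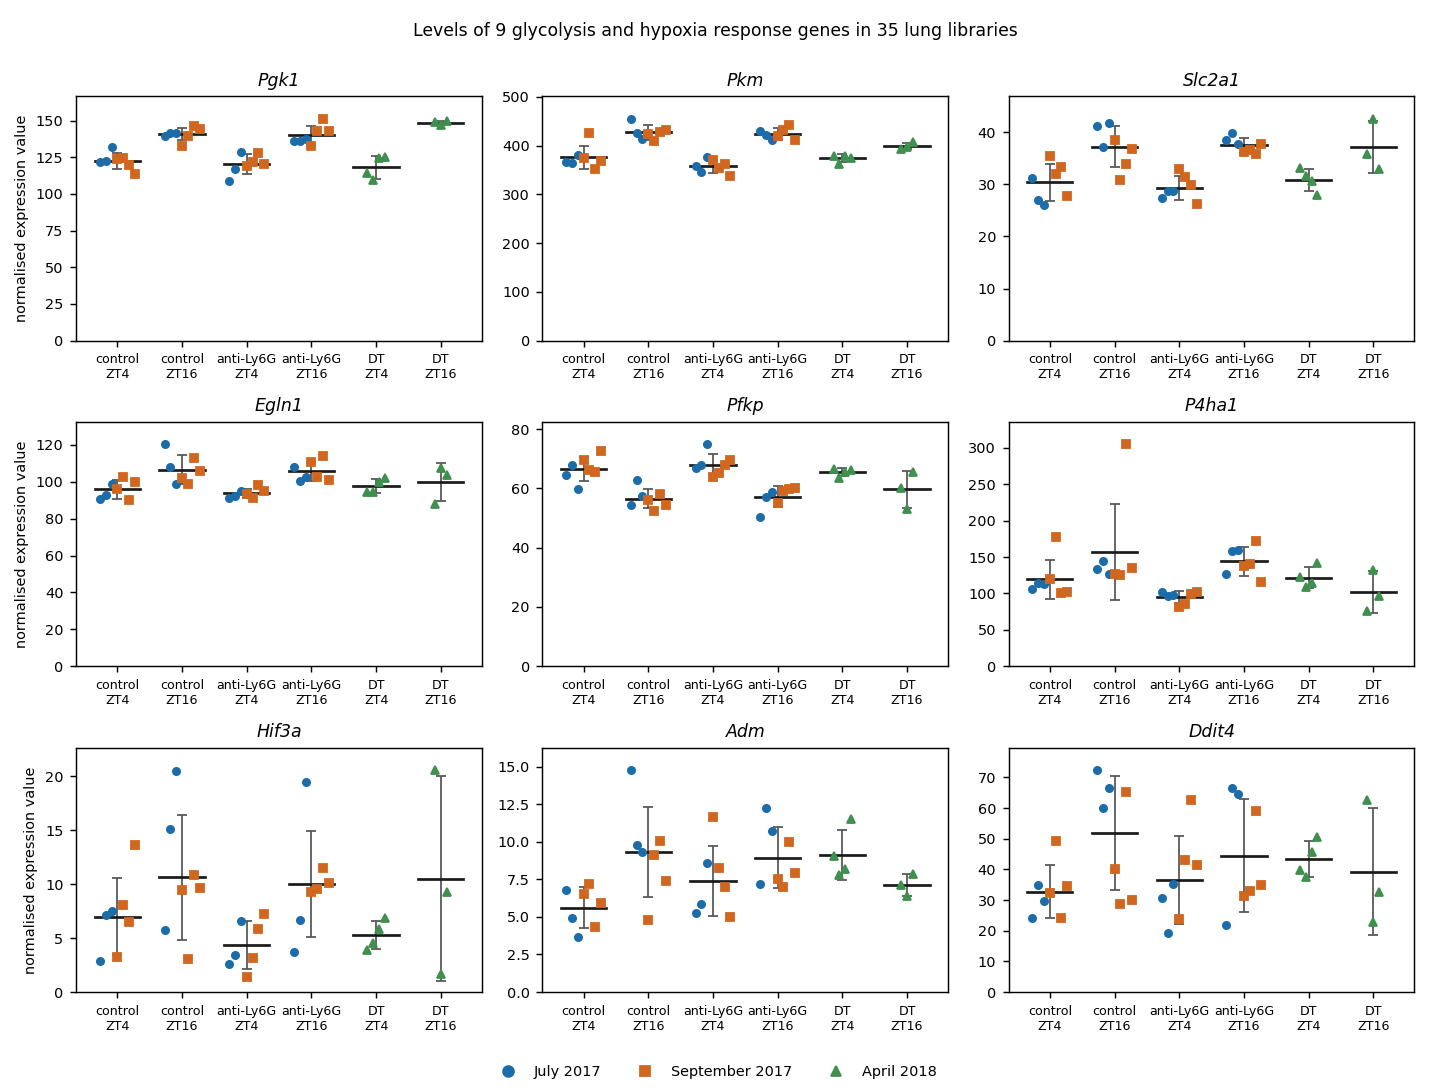
Normalised expression value (y axis, linear from 0) of 9 genes in each of the 35 libraries, by group (x axis), with the batch as colour and shape, the group mean as a line and ± 1 SD as the error bar. Pgk1 and Pkm lie higher at ZT16 than at ZT4 in control and anti-Ly6G mice and Pfkp lower, while P4ha1 has a single library at 305 and Hif3a and Ddit4 are widely spread within groups.

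In the lower, ATP-yielding part of the pathway the changes sat at phosphoglycerate kinase and pyruvate kinase. Pgk1 encodes the first ATP-making enzyme (ENSMUSG00000062070, chromosome X, 106187100 to 106203699, plus strand), and its promoter with 2 cores is shown above. It ran from 114 to 132 (median 123) at ZT4 and from 133 to 146 (median 141) at ZT16 in control mice, and from 109 to 129 (median 121) and 133 to 151 (median 137) in anti-Ly6G mice. The 2 times did not overlap in either treatment, and Pgk1 was the single member for which this held in control mice, where 1.36% of all genes were higher and 1.02% lower without overlap. Pgk1 rose by 0.20 ± 0.040 (adjusted p = 0.00102) and 0.22 ± 0.040 (adjusted p = 0.000184). Pkm, pyruvate kinase M, which makes the last ATP (ENSMUSG00000032294, chromosome 9, 59656368 to 59679375, plus strand), ran from 351 to 426 (median 369) and from 409.8 to 456 (median 427) in control mice. In anti-Ly6G mice it ran from 338 to 377 (median 358) and from 411 to 442 (median 422), with no overlap. It rose by 0.19 ± 0.036 (adjusted p = 0.000835) and 0.25 ± 0.036 (adjusted p = 9.02e-06), the smallest adjusted p of any member. The ZT4 control library of 426 that overlapped ZT16 was again ZT4_control Sep#2, and without it the control change was 0.22 (adjusted p = 3.58e-05). Gene-level values do not separate the M1 and M2 forms of Pkm, and 767 of its exon bases are shared with Gm49759.

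Aldoa, Tpi1 and Ldha also rose in anti-Ly6G mice. Aldoa, the main aldolase, ran from 398 to 433 (median 418) and from 427 to 489 (median 463) and rose by 0.14 ± 0.037 (adjusted p = 0.00533). Tpi1, triosephosphate isomerase, ran from 102 to 116 (median 112) and from 110.2 to 124 (median 122) and rose by 0.11 ± 0.038 (adjusted p = 0.0412), a call lost without any one of 6 libraries. Ldha, the lactate dehydrogenase subunit that favours lactate formation, ran from 240.2 to 274 (median 249) and from 266 to 319 (median 290.0) and rose by 0.19 ± 0.052 (adjusted p = 0.00935). Each of these 3 genes overlapped between the times. In control mice the changes of Aldoa, Tpi1 and Ldha were 0.056 ± 0.037, 0.075 ± 0.038 and 0.15 ± 0.052, none of them called, and the last had an adjusted p of 0.0653. Anti-Ly6G mice had 5 members higher and 1 lower without overlap, against 3.12% and 2.06% of all genes.

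The remaining enzymes were not called in control or anti-Ly6G mice. Gapdh, glyceraldehyde 3-phosphate dehydrogenase, had changes of 0.027 ± 0.048 and 0.13 ± 0.048 (adjusted p = 0.0556 in anti-Ly6G mice). Pgam1, phosphoglycerate mutase, had changes of -0.071 ± 0.047 and -0.014 ± 0.047, and Eno1, the common enolase, of -0.064 ± 0.042 and 0.036 ± 0.042. Aldoc and Eno2, the aldolase and enolase best known from neurons, were low, with medians by group from 6.07 to 7.65 for Aldoc and 4.38 to 6.35 for Eno2. Pdk1, the kinase that shuts pyruvate dehydrogenase under hypoxia, had changes of 0.18 ± 0.081 in control and 0.025 ± 0.081 in anti-Ly6G mice. Several of these values may mix gene and pseudogene reads: transcripts at least 95% identical over 200 or more bases were annotated elsewhere for Gapdh (78 genes), Pgk1, Ldha and Bnip3 (4 each), Eno1 (3, with Eno1b among them) and Pkm, Tpi1, Gpi1 and Pgam1 (1 each).

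In the oxygen sensing system the RNA of a hydroxylase rose in both treatments and that of an alpha subunit rose in anti-Ly6G mice, while Hif1a was not called in either. Egln1 encodes PHD2, the main HIF prolyl hydroxylase and itself a HIF target (ENSMUSG00000031987, chromosome 8, 124908587 to 124949324, minus strand). It ran from 90.0 to 103 (median 95.9) at ZT4 and from 98.6 to 120.3 (median 106) at ZT16 in control mice, and from 91.4 to 98.2 (median 93.3) and 101 to 114 (median 103) in anti-Ly6G mice. It rose by 0.15 ± 0.046 (adjusted p = 0.0328), with overlap, and by 0.17 ± 0.046 (adjusted p = 0.00829), without overlap. The control call was lost on leaving out any one of 7 libraries, with adjusted p up to 0.0935. Hif1a, the alpha subunit of the acute response, had changes of 0.015 ± 0.058 (95% interval -0.10 to 0.13) and -0.085 ± 0.058 (-0.20 to 0.033). Egln3, the hydroxylase PHD3, was low, with medians from 1.72 to 2.47, and had changes of -0.011 ± 0.16 and 0.15 ± 0.16.

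Hif3a, an alpha subunit whose short forms can restrain HIF and whose gene also responds to glucocorticoids, was widely spread within groups (chromosome 7, 17031507 to 17062427, minus strand). In control mice it ran from 2.85 to 13.6 (median 7.10) at ZT4 and from 3.02 to 20.4 (median 9.65) at ZT16, and in anti-Ly6G mice from 1.37 to 7.27 (median 3.43) and from 3.68 to 19.5 (median 9.51). It rose by 1.14 ± 0.40 in anti-Ly6G mice (adjusted p = 0.0408), the largest change of any member, while 0.52 ± 0.40 in control mice was not called (adjusted p = 0.47). The groups overlapped in both treatments. The anti-Ly6G call was lost on leaving out any one of 9 of its 14 libraries, with changes of 0.93 to 1.14 and adjusted p up to 0.11, and also with no filter on low values (adjusted p = 0.0519) or with limma's robust fit without a trend (adjusted p = 0.057).

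Among targets of hypoxia, P4ha1 and Adm were called, each in 1 treatment. The difference between the time changes of the treatments was not called for either (limma, adjusted p = 0.878 and 0.872). P4ha1 encodes a subunit of the collagen prolyl 4-hydroxylase that HIF raises for matrix building (chromosome 10, 59323296 to 59373304, plus strand). In anti-Ly6G mice it ran from 80.8 to 102 (median 97.3) at ZT4 and from 116 to 172 (median 139.8) at ZT16, and every ZT16 library was above every ZT4 library. It rose by 0.59 ± 0.15 (adjusted p = 0.00349). In control mice it ran from 101 to 178 (median 113) and from 126 to 305 (median 133), where the highest values were ZT4_control Sep#2 and ZT16_control Sep#3, and the change of 0.34 ± 0.15 was not called (adjusted p = 0.138). Adm, the vasodilator peptide adrenomedullin (chromosome 7, 110627661 to 110629820, plus strand), ran from 3.67 to 7.17 (median 5.92) and from 4.79 to 14.8 (median 9.30) in control mice and rose by 0.65 ± 0.18 (adjusted p = 0.0193), with overlap. In anti-Ly6G mice it ran from 5.00 to 11.6 (median 6.99) and from 6.99 to 12.2 (median 7.90), and the change of 0.29 ± 0.18 was not called. The control call was lost without ZT4_control Jul#3 (0.55, adjusted p = 0.0539) or ZT16_control Jul#1 (0.54, adjusted p = 0.0565).

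The other targets were not called. Ddit4, the mTORC1 inhibitor REDD1 that hypoxia and glucocorticoids raise, ran from 24.0 to 49.3 (median 32.4) at ZT4 and from 28.6 to 72.4 (median 60.1) at ZT16 in control mice, and its change of 0.61 ± 0.26 had an adjusted p of 0.143. The 3 July control libraries of ZT16 lay at 60.1 to 72.4, above all control libraries of ZT4, whereas 3 of the 4 September libraries lay at 28.6 to 40.0 among them. Car9, the surface carbonic anhydrase that is commonly used as a marker of hypoxia, was close to the filter value of 1, with medians from 1.103 to 2.07, and its changes were -0.30 ± 0.18 and -0.30 ± 0.18. Bnip3 (mitophagy), Ndrg1 (a stress-induced differentiation gene) and Ankrd37 had changes of -0.032 ± 0.097, 0.0064 ± 0.076 and 0.21 ± 0.16 in control mice.

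The July and September batches hold separate mice, so directions can be set side by side, though values may have been aligned between batches before deposit. All 8 members called in control mice and all 12 called in anti-Ly6G mice had one sign in both batches. These calls came from the joint fit of the same libraries, which favours genes of one sign. Their agreement is therefore no separate check. Over all members 24 of 33 in control and 26 of 33 in anti-Ly6G mice had one sign in both, against 61.5% and 66.8% of all genes. In control mice Slc2a1 had changes of 0.51 in July and 0.12 in September, Adm of 1.07 and 0.34 and Ddit4 of 1.17 and 0.18, with the larger change in July for each. Pgk1 was even, with 0.17 and 0.22 in control and 0.21 and 0.22 in anti-Ly6G mice. With each batch fitted alone, 2 members were called in control mice in July and 2 in September, and 4 and 3 in anti-Ly6G mice. Over all genes those fits called 309 and 482 in control and 798 and 1467 in anti-Ly6G mice.

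**Figure D3:**
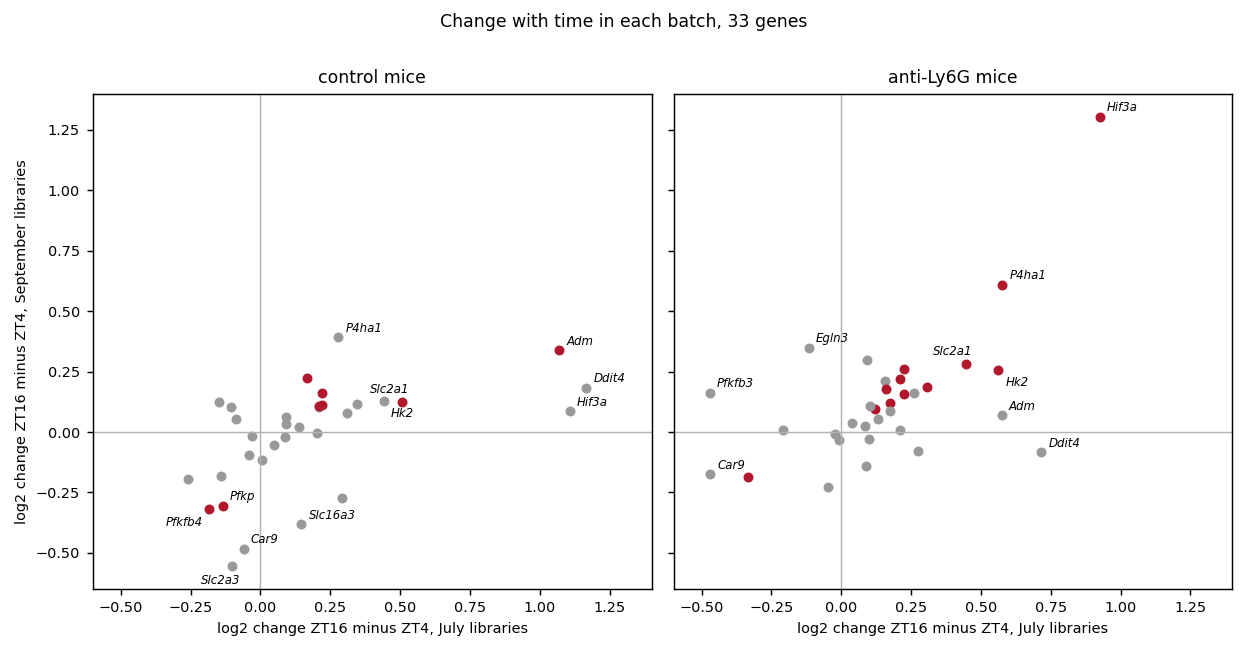
Log2 change from ZT4 to ZT16 of the 33 genes in the July libraries (x axis) and the September libraries (y axis) of control and anti-Ly6G mice, 1 point per gene, with genes called in the joint fit in red. The called genes lie at the upper right or lower left of the origin, and Ddit4, Adm and Hif3a of control mice lie far to the right, with July changes of 1.17, 1.07 and 1.11 against 0.18, 0.34 and 0.09 in September.

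No member was called between anti-Ly6G and control mice at the same time of day, which asks what the antibody did to these genes. At ZT4 none of the 33 was called by limma, and none of all 16786 genes was (0%), with 1185 genes (7.06%) at an unadjusted p under 0.05. At ZT16 none was called either (0% of all genes), with 0 members and 701 genes (4.18%) at an unadjusted p under 0.05. No member was called at either time under any alternative run. The 95% interval lay within 1.5-fold in either direction for 28 of 33 members at ZT4 and 30 of 33 at ZT16. The median difference of the members was -0.070 at ZT4 and -0.0018 at ZT16, against 0.0046 and 0.0011 over all genes. At ZT4, 26 of the 33 members were lower after anti-Ly6G, and 7 had an unadjusted p under 0.05 (Pfkm, Pfkfb4, Aldoa, Gapdh, Eno1, Pdk1 and P4ha1), of which Pdk1 was the higher one. Over all genes tested, 8722 of 16786 were higher at ZT4. ZT4_control Sep#2 was the highest control library for Pfkfb4, Aldoa, Gapdh, Eno1 and P4ha1, and its part in these differences was not tested. In the same comparison 10 of 10 heart muscle markers were lower (median -0.28, 5 with an unadjusted p under 0.05), as were 6 of 6 smooth muscle markers (median -0.22, 3 with such a p) and 11 of 11 neutrophil markers (median -1.10, 9 with such a p), none of them called. Their part in the member values was not tested.

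The members with the largest differences at ZT4 were Hif3a, Adm, P4ha1, Car9, Eno2 and Pfkfb4. Hif3a differed by -0.64 ± 0.40 (95% interval -1.47 to 0.18) and Adm by 0.34 ± 0.18 (-0.026 to 0.71), anti-Ly6G minus control. P4ha1 differed by -0.31 ± 0.15 (-0.61 to -0.014), where the control group held the 178 of ZT4_control Sep#2 and the anti-Ly6G libraries ended at 102. Car9 differed by -0.31 ± 0.18, Eno2 by -0.22 ± 0.13 and Pfkfb4 by -0.21 ± 0.075, and the adjusted p of these 6 genes lay between 0.641 and 0.758. In Eno2 the values ran from 3.65 to 6.40 (median 6.08) in control and from 3.82 to 5.36 (median 4.38) in anti-Ly6G mice, so the groups overlapped, as they did for all members at both times, where 0.107% of all genes at ZT4 and 0.0357% at ZT16 did not overlap. At ZT16 the largest were Car9 (-0.31 ± 0.18, interval -0.66 to 0.049), Ddit4 (-0.24 ± 0.26), Slc2a3 (0.10 ± 0.16), Pfkm (0.082 ± 0.072), Aldoc (0.081 ± 0.13) and Hif1a (-0.072 ± 0.058), each with an adjusted p of 0.966 or above. The interval of Ddit4, -0.77 to 0.29, was wide, and its values ran from 28.6 to 72.4 (median 60.1) in control and from 21.8 to 66.6 (median 34.8) in anti-Ly6G mice at ZT16.

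**Figure D4:**
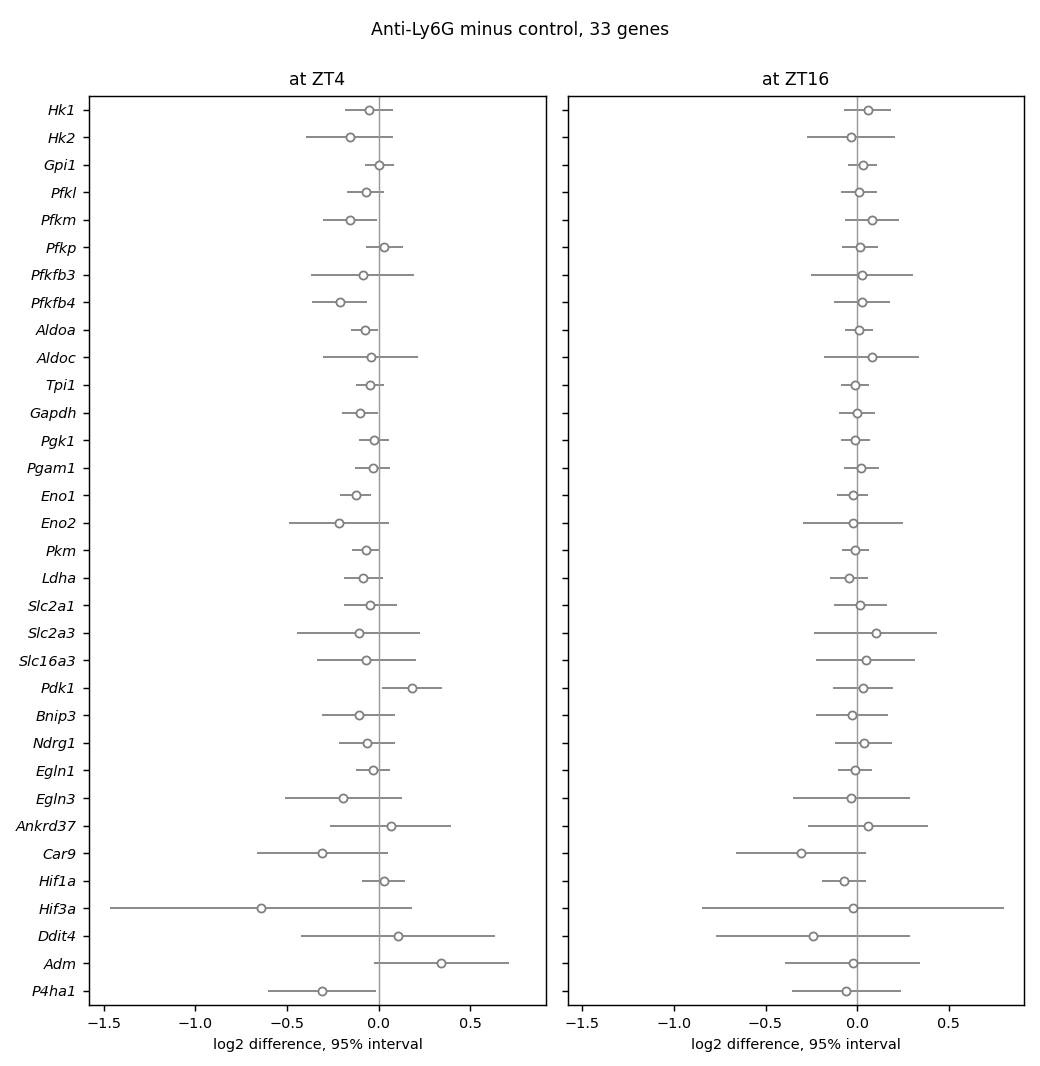
Log2 difference between anti-Ly6G and control mice (x axis, 95% interval, limma) of the 33 genes (y axis) at ZT4 and at ZT16. No gene was called at either time, and the intervals of Hif3a at ZT4, from -1.47 to 0.18, and at ZT16, from -0.85 to 0.80, are the widest.

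No member was called by limma for the difference between the time changes of anti-Ly6G and control mice (0% of all genes, with 1007 genes, or 6%, at an unadjusted p under 0.05), so the 12 and 8 calls above do not show that the treatments differ. The largest differences were Hif3a with 0.62 ± 0.57, Adm with -0.37 ± 0.26, Ddit4 with -0.35 ± 0.37, P4ha1 with 0.25 ± 0.21, Pfkfb4 with 0.24 ± 0.11 and Pfkm with 0.24 ± 0.10. Pfkfb4 and Pfkm had an unadjusted p of 0.0296 and 0.0264 and an adjusted p of 0.812. For Hif3a the sign was not stable, with -0.18 in July and 1.22 in September.

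DT mice shared the called rise of Pgk1 with control and anti-Ly6G mice, and that of Ldha with anti-Ly6G mice. Other members were called in DT mice only or in the other treatments only, which does not by itself show a different time change. Tested against control mice, the time change of DT mice differed for 2 of 33 members. Between ZT4 and ZT16, 3 members rose (Pgk1, Ldha, Gapdh) and 2 fell (Pfkfb3, Hif1a), or 15.2% of members against 15.3% of all genes, so the share of members called was that of genes in general. Over all genes 5.3% were called higher and 9.98% lower. Pgk1 was 114, 109, 124 and 126 at ZT4 and 149, 147 and 149.5 at ZT16 and rose by 0.33 ± 0.057 (adjusted p = 0.000207). Ldha was 226, 232, 259.6 and 276 and then 296, 321 and 300, and rose by 0.30 ± 0.074 (adjusted p = 0.00635). Gapdh was 372, 385, 419 and 409.5 and then 517, 477 and 464, and rose by 0.29 ± 0.068 (adjusted p = 0.00388). Each of these 3 genes had all ZT16 values above all ZT4 values, which held for 8 members against 10.9% of all genes.

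Pfkfb3 was 119, 147, 155 and 153 at ZT4 and 111, 69.3 and 107 at ZT16 in DT mice and fell by 0.60 ± 0.20 (adjusted p = 0.034), without overlap, as 1 member did against 15.3% of all genes. The Pfkfb3 call was lost without ZT16_DT Apr#2, which held the lowest value (-0.39, adjusted p = 0.245), and also without ZT4_DT Apr#2 (adjusted p = 0.0694), Apr#3 (0.0684) or Apr#4 (0.0636), and with limma's robust fit without a trend. Hif1a was 86.6, 79.7, 74.0 and 80.4 and then 74.8, 63.9 and 62.4, with 1 ZT16 value inside the ZT4 range, and fell by 0.26 ± 0.083 (adjusted p = 0.0326). The Hif1a call was lost on leaving out any one of 5 of the 7 DT libraries, with adjusted p up to 0.149, and with only DT mice in the fit. Both genes also lost their call under quantile normalisation, where 7 members were called higher and 0 lower in DT mice in place of 3 and 2. In the same comparison 7 of 8 capillary endothelial markers were called lower (9.98% of all genes), and 0 of the 8 had a positive change. Their summed levels were 3371 to 4056 at ZT4 and 2398 to 2543 at ZT16. All 4 of 4 club cell markers were called higher (5.3% of all genes), with sums of 25040 to 32660 and 37640 to 46160. The part of cell composition in the member changes was not tested. Hif1a shares 478 exon bases with Gm15283 and Gm49321.

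The members not called in DT mice included carriers and enzymes that rose in the other treatments. Slc2a1 was 33.1, 31.6, 30.6 and 28.0 and then 35.9, 42.6 and 33.04, with a change of 0.26 ± 0.10 (adjusted p = 0.0754), and Pkm and Pfkp had changes of 0.094 ± 0.052 and -0.14 ± 0.070. Aldoa was 405, 398, 439 and 439 at ZT4 and 449, 476 and 471 at ZT16, with no overlap and a change of 0.15 ± 0.053 (adjusted p = 0.054). Eno2 was 2.90, 4.69, 5.03 and 4.67 and then 6.35, 6.77 and 5.22, also without overlap, with a change of 0.47 ± 0.19 (adjusted p = 0.0911). Pkm, Gpi1 and Tpi1 were the other uncalled members whose ZT16 values all lay above ZT4. The anti-Ly6G rises of P4ha1 and Hif3a had no counterpart that could be called: P4ha1 was 122, 108, 115 and 142 and then 75.5, 133 and 96.3, with a change of -0.29 ± 0.21. Hif3a was 3.88, 4.56, 5.83 and 6.86 and then 20.6, 1.71 and 9.26, so the ZT16 mice held both the highest and the lowest value, and its change was 0.44 ± 0.58.

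The time change of DT mice differed from that of control mice for 2 members, 6.06% against 13.8% of all genes, of which 4.93% were called higher and 8.86% lower. Gapdh changed by 0.27 ± 0.083 more in DT than in control mice (adjusted p = 0.0293), with 0.29 ± 0.068 in DT and 0.027 ± 0.048 in control mice. Adm went from 9.05, 7.78, 8.17 and 11.5 at ZT4 to 7.10, 6.42 and 7.87 at ZT16 in DT mice, a change of -0.32 ± 0.26 that was not called there, and differed from the control change by -0.98 ± 0.32 (adjusted p = 0.0362). The Gapdh call was lost without ZT4_DT Apr#1 (0.24), ZT4_DT Apr#2 (0.25), ZT16_DT Apr#1 (0.22) or ZT16_DT Apr#2 (0.28), and that of Adm without any one of 8 libraries (-0.98 to -0.86). Under quantile normalisation 3 members were higher and 1 lower, and with centring on the median 1 was higher and 2 lower. Batch, genotype and toxin differ together in this comparison.

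Other genes of the same biology, from lists beside the 33, were tested for time in the same fit. Of 16 HIF pathway parts, 2 rose in control mice, Epas1 by 0.27 ± 0.067 and Arnt by 0.15 ± 0.045, and 0 fell, where 9.04% of all genes were called. Epas1 encodes HIF-2 alpha, the main alpha subunit of lung endothelium and alveolar cells, and Arnt the shared partner. In anti-Ly6G mice 5 of the 16 rose and 2 fell (20.9% of all genes were called), with Epas1 at 0.49 ± 0.067, Arnt at 0.21 ± 0.045 and Tceb1, a part of the VHL complex, at -0.24 ± 0.059. In DT mice, where 15.3% of all genes were called, 1 fell, Cited2, a competitor of HIF for its coactivator, by 0.47 ± 0.096. Epas1 was 2875 ± 260.2 at ZT4 and 3463 ± 245 at ZT16 in control mice, and 2720 ± 231 and 3830 ± 274 in anti-Ly6G mice (mean ± SD, n = 7 each).

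Of 39 other hypoxia targets tested, 9 rose and 3 fell in control mice, 11 rose and 4 fell in anti-Ly6G mice, and 2 rose and 6 fell in DT mice. The shares of all genes called higher and lower were 4.65% and 4.38%, 10.6% and 10.4%, and 5.3% and 9.98% in the same order. Those of smallest adjusted p in control mice were Mxi1, a Myc antagonist (0.31 ± 0.059), Wsb1, a ubiquitin ligase part (-0.29 ± 0.065), and Tek, the endothelial receptor TIE2 (0.37 ± 0.080). In anti-Ly6G mice they were Wsb1 (-0.66 ± 0.065), Mxi1 (0.39 ± 0.059) and Selenbp1 (0.47 ± 0.073), and in DT mice the collagen crosslinking enzymes Lox (-0.96 ± 0.25) and Loxl2 (-0.35 ± 0.092) and Tek (-0.44 ± 0.11). Tek thus rose in control and fell in DT mice, and the difference was -0.81 ± 0.14 (adjusted p = 0.000599). The capillary endothelial marker sums, which did not overlap between times in DT mice, ran from 2705 to 3404 at ZT4 and from 2591 to 3200 at ZT16 in control mice, and their part in the Tek values was not tested. The median change of this list was -0.0092, 0.032 and -0.032 in the 3 treatments, against -0.0018, -0.016 and -0.0090 over all genes.

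Neighbouring carbon pathways held calls in single genes. Over all genes 9.04% were called in control, 20.9% in anti-Ly6G and 15.3% in DT mice. Among 14 glycogen genes Gyg, the glycogenin primer, fell by 0.68 ± 0.068 in control, 0.74 ± 0.068 in anti-Ly6G and 0.37 ± 0.097 in DT mice, while Pgm2l1 and Gbe1, the branching enzyme, rose by 0.36 ± 0.075 and 0.28 ± 0.080 in control mice and 0.27 ± 0.075 and 0.44 ± 0.080 in anti-Ly6G mice. In DT mice Gys1, glycogen synthase, rose by 0.23 ± 0.082. Of 13 genes for pyruvate entry into mitochondria, 2 rose in control mice, Mpc1 by 0.20 ± 0.038 and Pdp1 by 0.29 ± 0.063, 3 rose in anti-Ly6G mice, Mpc1 by 0.25 ± 0.038, Pdp1 by 0.35 ± 0.063 and Pdp2 by 0.45 ± 0.12, and in DT mice Mpc1 rose by 0.40 ± 0.054 and Pdpr fell by 0.51 ± 0.14. Mpc1 is a subunit of the mitochondrial pyruvate carrier, and Pdp1 and Pdp2 are the phosphatases that oppose Pdk1.

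Another list held 17 tested enzymes of glycolysis or of sugar steps next to it, such as the galactose enzyme Galk1. In control mice 2 rose and 1 fell (Galm 0.36 ± 0.086, Hkdc1 0.42 ± 0.11, Ldhb -0.21 ± 0.069). In anti-Ly6G mice 3 rose and 1 fell (Hkdc1 0.43 ± 0.11, Galm 0.29 ± 0.086 and Hk3 -0.73 ± 0.21 among them). In DT mice 3 rose and 1 fell (Ldhb 0.35 ± 0.098, Galk1 0.35 ± 0.098 and Hkdc1 -0.49 ± 0.16 among them). Hk3 is the hexokinase of myeloid cells. For this list and those below, 4.65% of all genes were called higher and 4.38% lower in control mice. The shares were 10.6% and 10.4% in anti-Ly6G mice and 5.3% and 9.98% in DT mice. A further list held 12 tested genes of the glucose and lactate carrier families and their partner proteins. Not all of them carry glucose or lactate. In control mice 1 rose and 2 fell (Slc2a13 0.40 ± 0.11, Emb -0.20 ± 0.047, Slc2a9 -0.37 ± 0.11). In anti-Ly6G mice 2 rose and 3 fell (Slc2a13 0.53 ± 0.11, Emb -0.32 ± 0.047 and Slc2a9 -0.48 ± 0.11 among them). In DT mice 1 rose, the lactate carrier Slc16a1, by 0.28 ± 0.095. Of 8 pentose phosphate genes Rpe rose by 0.17 ± 0.047 and Rpia fell by 0.22 ± 0.063 in control mice, and H6pd rose by 0.33 ± 0.075 in anti-Ly6G and fell by 0.36 ± 0.11 in DT mice. Of 5 gluconeogenic genes tested none was called in control mice (2 at an unadjusted p under 0.05, limma), and G6pc3 fell by 0.20 ± 0.062 in anti-Ly6G and rose by 0.36 ± 0.089 in DT mice. No gene of these 8 lists was called between anti-Ly6G and control mice at either time, and none of all 16786 genes was (0%).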

How the data were processed

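Per the labels' protocols, left lung lobe RNA went through a kit for amplifying single-cell amounts and then an Illumina library kit. The deposited table holds normalised counts, treated here as a signal, since the values are not whole numbers. The authors' normalisation, any alignment of batches, strand use and depth are not given in the sources used here. Listed without roles are the build GRCm38 and the tools kallisto 0.43.1, RSEM 1.2.20, CASAVA 1.8.2 and cutadapt, per the submitters' processing notes. Column names give group and batch but match no single labelled sample.

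Values were tested as log2(value + 0.5) with limma 3.58.1 (R 4.3.3, trend) on genes with a value of at least 1 in at least 3 libraries, which kept 16786 genes, all 33 members included, and removed 5425. Changes are on that scale, which understates the change of low genes. With 6 group means and a term for September minus July, 28 residual degrees of freedom were left. Two-sided p-values were adjusted by Benjamini-Hochberg over all genes kept, and a gene was called at an adjusted p under 0.05. Errors of changes are standard errors. The September minus July difference had an SD of 0.516 standard errors over genes. Batches left unaligned would be likely to give a wider spread, so the batches appear aligned and standard errors may be somewhat small. The script was tested on simulated data. Near-identical transcripts were found with BLAST 2.17.0.

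Members and lists were chosen with earlier results of these data known. Members called in any of 7 contrasts are given in full, with the 6 largest differences where none was called, and at most 3 genes of smallest adjusted p per companion list. Alternatives changed the pseudocount, filter, scaling, batch term, samples in the fit and single libraries. A withheld item of a companion list is not reported here.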

Additional observations from a re-analysis of the deposited data

Results flagged for a closer look

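In 15 of 165 groups of 4 or 7 libraries, 1 member value stood apart by Dixon's test at its 95% critical value, and chance alone marks about 1 in 20 groups. Of these, 6 were the highest of their group in ZT4_control Sep#2, the library with a neutrophil marker sum of 914: Pkm at 426, Slc2a3 at 19.99, Slc16a3 at 28.8, Ankrd37 at 6.56, Ddit4 at 49.3 and P4ha1 at 178. ZT16_control Sep#3 held the highest P4ha1 of its group (305), the highest Eno2 (8.29) and the lowest Pdk1 (29.1). The other high values were Pfkl in ZT16_control Jul#1 (84.8), Pfkfb3 in ZT4_antiLy6G Jul#3 (205), Pfkfb4 in ZT4_antiLy6G Sep#3 (58.1) and Aldoc in ZT4_antiLy6G Jul#1 (9.32). Low values in ZT4_DT Apr#1 were Eno2 at 2.90 and Ndrg1 at 39.9.

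The time change differed between DT and control mice for Gapdh, by 0.27 on the log2 scale, and for Adm, by -0.98, in the limma test of that difference.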

How the results depend on the processing

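With single batches, 2 (July) and 2 (September) members were called for time in control mice in place of 8, and 4 and 3 in anti-Ly6G mice in place of 12, with fewer libraries in each fit. Under quantile normalisation 4 members were called for time by DT in place of 2. Leaving out 1 library at a time gave 5 to 9 members in control, 10 to 13 in anti-Ly6G and 3 to 5 in DT mice, 0 to 3 for time by DT, and 0 to 0 for both anti-Ly6G comparisons and for time by anti-Ly6G. The control count was 5 without ZT4_control Jul#2 or ZT16_control Jul#1 and 9 without ZT4_control Sep#2, and the DT count was 3 without ZT4_DT Apr#2 or ZT16_DT Apr#2. For time by DT the count moved by over 1.5 times in 8 of 21 such fits, to 0 without ZT4_DT Apr#1 and to 1 without ZT4_control Jul#3 or Sep#3, ZT16_control Sep#3, ZT4_DT Apr#2 or Apr#4, or ZT16_DT Apr#1 or Apr#2. Hif3a reversed for time by anti-Ly6G in July alone, at -0.18 against 0.62, and the cause was not tested. Quantile normalisation also ended the control calls of Pfkl and Egln1 and the anti-Ly6G call of Tpi1. Fitting only control and anti-Ly6G mice ended those of Pfkl and Tpi1, and Tpi1 was also lost with no filter on low values and in the robust fit without a trend. No paired analysis was possible because the columns carry no replicate number that matches the labels. Depth is unknown, which limits what can be said of low members such as Car9 and Egln3.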

Other observations

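Stress-responsive genes outside the 33 were looked at after values had been seen. ZT16_control Sep#3, with P4ha1 at 305, was the highest of 35 libraries for the heat shock genes Hspa1a (377), Hspa1b (712), Hsph1 (743), Dnajb1 (194) and Hspa8 (4550). ZT4_control Sep#2, the library with the neutrophil marker sum of 914, ranked 3 of 35 for Hspa1a (106.5), Hspa1b (171.7), Hsph1 (260) and Dnajb1 (92.6). For Hspa8 that library ranked 7 (2135). The 3 highest libraries for Hif3a were ZT16_DT Apr#1 (20.6), ZT16_control Jul#3 (20.4) and ZT16_antiLy6G Jul#3 (19.5), and these were also the 3 highest for Fkbp5, 1 of 4 glucocorticoid-responsive genes looked at, with 119, 147 and 132. The other genes did not share that order: ZT16_DT Apr#1 ranked 15 of 35 for Tsc22d3, 10 for Zbtb16 and 6 for Sgk1, and ZT16_antiLy6G Jul#3 ranked 1, 1 and 8, and ZT16_control Jul#3 2, 3 and 1. What links these values was not tested.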
